A study of Mus musculus with 7 samples.

Results

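Chromatin binding of estrogen receptor beta (ERβ, encoded by Esr2) was examined at the genes of the reelin pathway in mouse ovary. The set comprised 4 of the 21728 protein-coding genes of the autosomes and chromosome X, namely Lrp8, Vldlr, Reln and Dab1, chosen by name. The region of each was its gene body in the mouse assembly mm10 (GENCODE vM21) plus 50 kb on each side. In chromatin immunoprecipitation followed by sequencing (ChIP-seq), cross-linked fragments held by an antibody are sequenced and set against sheared chromatin that was not enriched (input). A site was a 200-bp window with over 4 times the mean signal of the 2 inputs in at least 2 of the 3 ChIP libraries, and windows within 200 bp of each other were merged. Of the 4841 sites of the genome, 5 lay in these regions, 1 at Lrp8 and 4 at Reln, and 0 at Vldlr and Dab1.

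The ChIP libraries were replicates 1 to 3 of ERβ ChIP and the inputs replicates 1 and 2, all from whole ovaries of untreated C57BL/6J mice with their own Esr2 gene intact. Each ChIP replicate pooled the ovaries of several mice, from weeks to a few months of age and at no fixed stage of the estrous cycle, after fixation in 1% formaldehyde for 15 min. The antibody was the mouse monoclonal PPZ0506. The 2 ChIP samples from ovaries with a deleted Esr2 gene were not analysed here, so every comparison is with input. ERβ is known mainly from granulosa cells, but expression was not analysed here, and strong binding in few cells cannot be told apart from weak binding in many. Mean signal over the genome was 0.362 to 0.37 in all 5 libraries, which the authors had scaled to a common total. The number of reads behind each value is not recorded in the tracks. Input replicate 1 was stored in segments with a median of 269 bp, against 481 to 519 bp in the other libraries. ChIP replicate 1 and Input replicate 1 differed from the other 3 libraries in the prefix of their track names.

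Reelin, the product of Reln, is a large glycoprotein secreted into the extracellular matrix and is best known for guiding migrating neurons. It binds the lipoprotein receptors Lrp8 (also called ApoER2) and Vldlr, which recruit the adaptor Dab1, and Src-family kinases then phosphorylate Dab1 to pass the signal on to the cytoskeleton. Both receptors belong to the LDL receptor family and also bind apolipoprotein E, and in birds the VLDL receptor carries yolk precursors into the growing oocyte.

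The sequences of the Lrp8 site, of the strongest Reln site and of the Reln site that differed most between replicates are given here, since the results turn on them. They are the plus strand of mm10, and capitals mark the best match to the estrogen response element (ERE). The ERE searched was GGTCA, 3 free bases, then TGACC, a palindrome with 10 fixed bases to which estrogen receptors bind as dimers.
Lrp8 site 1, chr4:107811131-107811330: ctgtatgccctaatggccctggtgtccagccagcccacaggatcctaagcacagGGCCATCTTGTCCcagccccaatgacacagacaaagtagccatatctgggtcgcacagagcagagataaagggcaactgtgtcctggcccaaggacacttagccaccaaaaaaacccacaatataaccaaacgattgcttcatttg
Reln site 1, chr5:22135621-22135820: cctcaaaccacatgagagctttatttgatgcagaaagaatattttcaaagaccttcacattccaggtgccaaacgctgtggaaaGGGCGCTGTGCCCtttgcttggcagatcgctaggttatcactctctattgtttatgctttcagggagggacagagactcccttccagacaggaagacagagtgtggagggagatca
Reln site 3, chr5:22099071-22099270: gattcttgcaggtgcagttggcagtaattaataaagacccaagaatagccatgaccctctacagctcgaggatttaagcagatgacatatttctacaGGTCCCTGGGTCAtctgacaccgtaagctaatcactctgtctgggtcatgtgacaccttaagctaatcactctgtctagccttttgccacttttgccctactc

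Lrp8 held the site with the highest mean fold of the 5 over the mean of the 2 inputs. It lay 8.97 kb downstream of the gene start, in intron 2 of 18 of the principal transcript, and 283 bp upstream of an annotated start of the overlapping gene Lrp8os2. Its signal was 6.13, 8.76 and 6.44 in ChIP replicates 1, 2 and 3, against 0.49 and 0.58 in Input replicates 1 and 2. All 3 ChIP values thus stood far above both inputs, with replicate 2 the highest. The fold over input was 13.3 ± 2.68 (SD, n = 3), which ranked 573 among the 4841 sites. Against Input replicate 1 alone the mean fold was 14.5, and Reln site 1 had 11.91. Against Input replicate 2 alone it was 12.26, under the 13.67 of Reln site 1 and the 12.61 of Reln site 4. As sites were chosen on the fold over the mean of the 2 inputs, that fold is a description and was not tested. When the site was called from the other 2 ChIP libraries alone, the fold in the library left out was 11.3, 16.15 and 12.04 for replicates 1, 2 and 3, where the genome medians were 5.60, 7.83 and 7.44. The same 2 inputs served for the call and for this fold. By this measure, Reln site 1 had 11.7, 14.88 and 11.6, and Reln site 2 had 6.29, 7.81 and 8.81. Reln site 3 had 4.05, 14.2 and 4.96, and Reln site 4 had 7.915, 7.396 and 6.716.

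Reln, the gene of the ligand, held 4 sites in introns 6, 8, 10 and 53 of the 64 introns of its principal transcript, numbered here from the gene start. The first 3 lay 209 kb, 223.4 kb and 245.5 kb downstream of the start, and the fourth lay at 429.7 kb, near the far end of the gene body of 460.2 kb. Reln site 1 had a signal of 9.86, 12.54 and 9.78 in ChIP replicates 1, 2 and 3 and of 0.901 and 0.785 in the inputs. Again no ChIP value came near an input, and replicate 2 was the highest. Its fold over input of 12.7 ± 1.86 (SD, n = 3) ranked 622, close to the Lrp8 site. It lay 1.05 kb upstream of the start of a transcript of Reln annotated for nonsense-mediated decay, and the nearest start of a protein-coding transcript was that of Reln itself.

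The other Reln sites were weaker, and differed in how evenly the replicates shared the signal. Reln site 2 (chr5:22121181-22121380) had signals of 2.37, 2.88 and 3.24 in ChIP replicates 1, 2 and 3 and of 0.34 and 0.384 in the inputs, a fold of 7.69 ± 1.19. Here replicate 1 was the lowest and the ChIP values did not overlap the inputs. Reln site 3 had signals of 1.49, 5.29 and 1.83 against 0.44 and 0.24, with folds of 4.05, 14.4 and 4.96 and a mean of 7.795 ± 5.72. Replicate 2 stood apart there, and without it the mean fold was 4.505. Against Input replicate 1 alone, ChIP replicate 1 reached 3.39-fold at this site, under the minimum of 4. Reln site 4 (chr5:21914861-21915060) had even ChIP signals of 5.58, 5.21 and 4.72 but uneven inputs of 1.00 and 0.41. Its fold of 7.33 ± 0.615 became 5.17 against Input replicate 1 alone and 12.6 against Input replicate 2 alone. The nearest start of a protein-coding transcript to sites 3 and 4 was that of Slc26a5, at 233.6 kb and 49.36 kb, although both sites lay inside Reln. The nearest annotated start of any transcript to site 4 was that of Gm10475, at 4.03 kb.

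**Figure D1:**
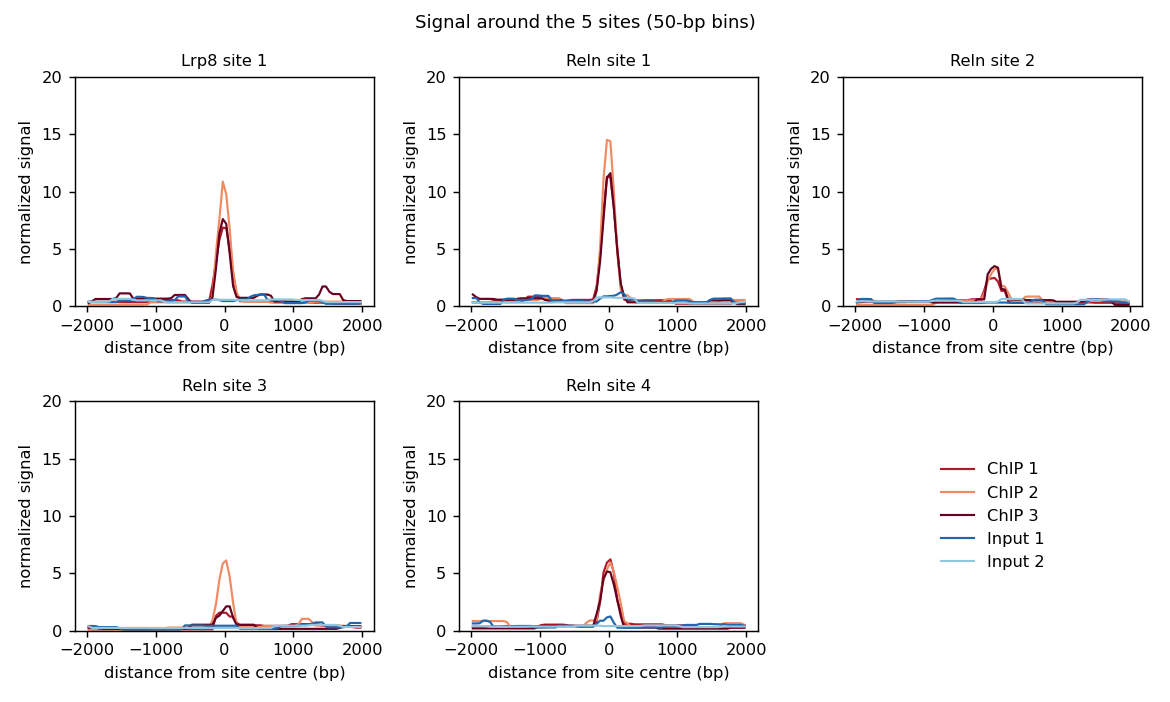
Normalized signal in 50-bp bins (vertical axis) within 2 kb of the centre of each of the 5 sites (horizontal axis, bp), with 1 line per library. Each site is a single narrow peak in the ChIP libraries (reds), and the inputs (blues) stay low. At Reln site 3 the peak of ChIP 2 is far above those of ChIP 1 and ChIP 3.

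Peaks were narrow and placed alike in the 3 replicates. The stretches over threshold spanned 360 to 540 bp, and the window of highest signal in each library lay within 10 bp of the centre at the Lrp8 site and at Reln sites 1 and 4. At Reln sites 2 and 3 it lay within 40 bp. All 5 sites were called in 3 of 3 ChIP libraries. Over the genome, requiring 3 of 3 gave 3287 sites, beside the 4841 of the main rule. When 1 input was set against the other at over 4-fold, 0 sites were found in the 4 regions in either direction. The whole genome had only 64 such sites for Input replicate 1 over 2 and 192 for the reverse. A count of 0 in regions this small therefore says little.

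Vldlr, the second reelin receptor, and Dab1, the intracellular adaptor, held no site. The strongest Vldlr window lay 45.84 kb from the gene start, beyond the gene end, with signals of 1.21, 1.2 and 0.877 in ChIP replicates 1 to 3 and of 0.841 and 0.446 in the inputs. The lowest ChIP value there was close to the higher input, and the second-highest fold was 1.865. Dab1 came closer to the threshold, in intron 3 of the 9 introns of an annotated transcript, one of several of this gene. There a window at chr4:104187581-104187780 had signals of 1.34, 0.68 and 1.34 in the ChIP replicates against 0.34 and 0.22. ChIP replicates 1 and 3 were the higher ones there, at 3.63-fold and 3.635-fold, and replicate 2 was at 1.85-fold. A second window of the same intron, at chr4:104182161-104182360, had folds of 3.54, 1.88 and 4.725.

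Just inside the threshold stood Reln site 3, with a second-highest fold of 4.96. Just outside it stood the Dab1 windows at 3.63 and 3.54, and a window in intron 3 of Reln (chr5:22220901-22221100) at 3.59. With a minimum of 3-fold, Dab1 had 2 sites and Reln 6, while Lrp8 still had 1 and Vldlr 0. The strongest other window at Lrp8 had a second-highest fold of 2.74.

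**Figure D2:**
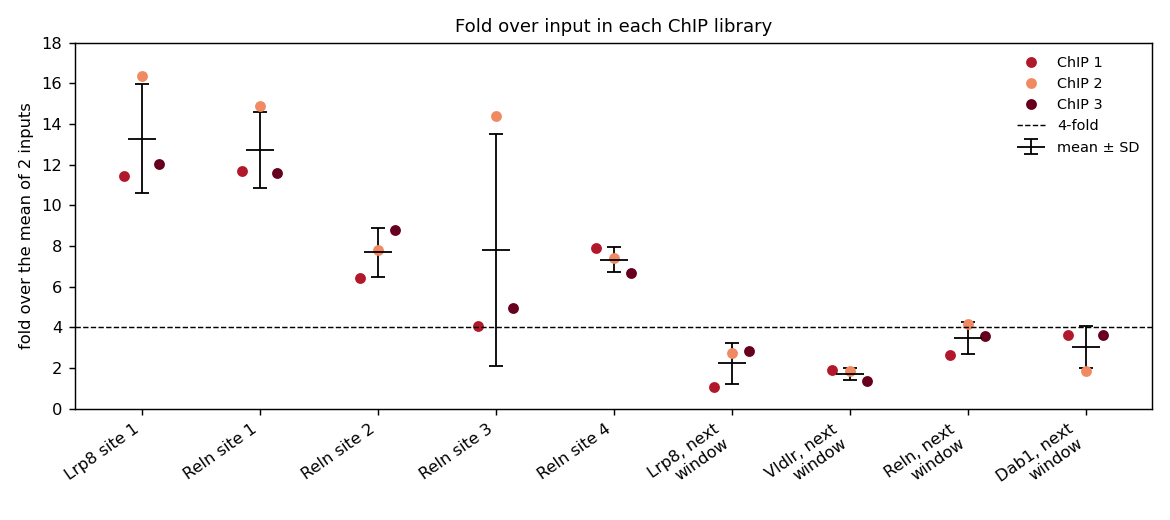
Fold of each ChIP library over the mean of the 2 inputs (vertical axis, from 0) at the 5 sites and at the strongest window of each gene outside its sites. Points are libraries, bars the mean ± SD (n = 3), and the dashed line marks 4-fold. Lrp8 site 1 and Reln site 1 lie above 11-fold in every library, and the windows outside sites have means between 1.70 and 3.46.

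On a fixed grid of 200-bp windows, 0.0432% of the 13168874 windows of the genome were over 4-fold in at least 2 ChIP libraries. In the regions of these genes, 2 of 872 grid windows passed at Lrp8, 4 of 2800 at Reln, 0 of 688 at Vldlr and 0 of 6127 at Dab1. The Dab1 region was the longest, at 1225.5 kb, and the genome share would give 2.64 passing windows there. In sites per Mb, Lrp8 (from 1 site) had 5.73, Reln 7.14 and Vldlr and Dab1 0. The 4 regions together had 2.38, against 1.89 for the genome.

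**Figure D3:**
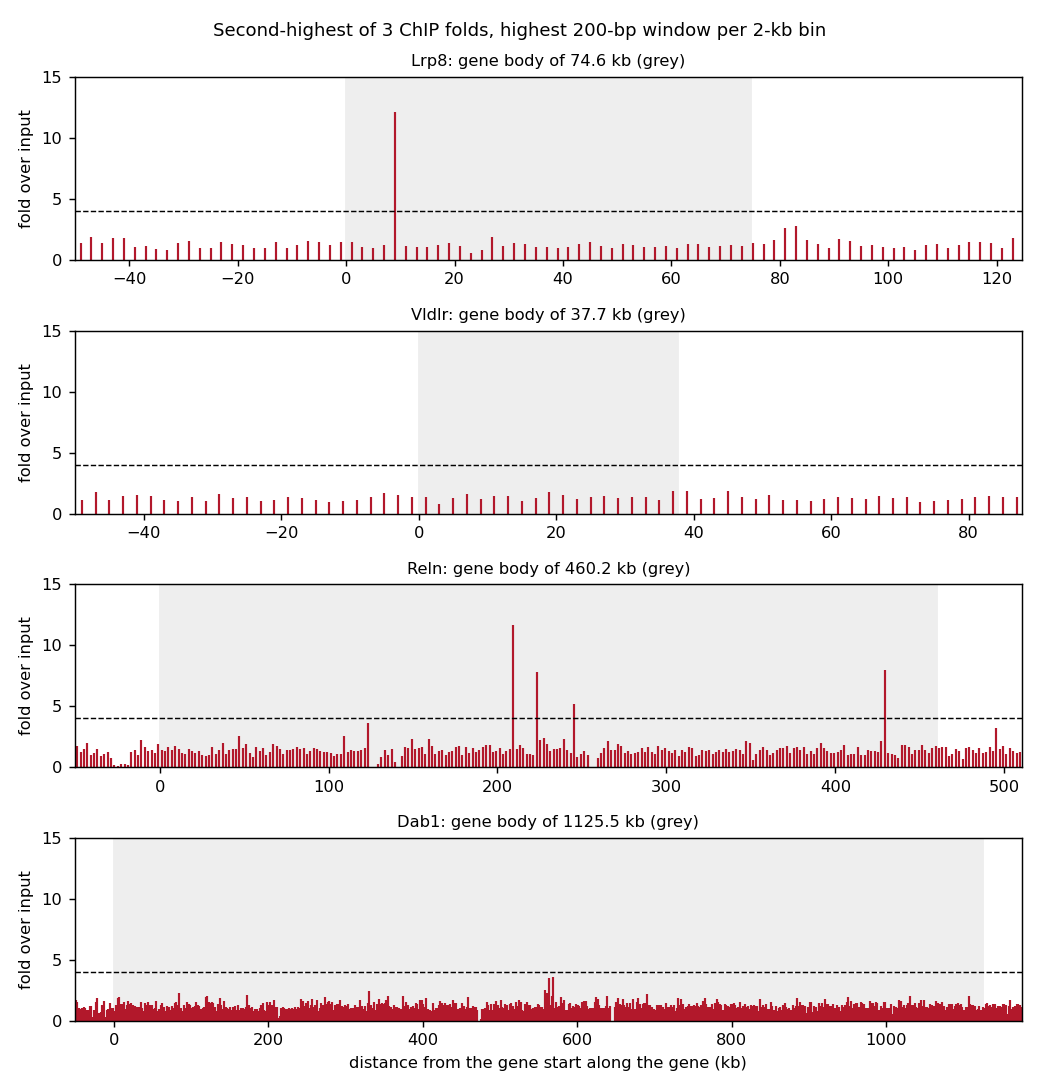
Second-highest of the 3 ChIP folds over input (vertical axis) for the highest 200-bp window in each 2-kb bin, against the distance from the gene start along the gene (horizontal axis, kb). Grey marks the gene body and the dashed line 4-fold. Lrp8 has 1 bar above the line near its start, Reln has 4 in its interior, and Vldlr and Dab1 have none.

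In the 1 kb around the gene start, ChIP was not detectably above input at any of the 4 genes. There, Lrp8 had signals of 0.677, 0.405 and 0.817 in ChIP replicates 1 to 3 against 0.657 and 0.608 in Input replicates 1 and 2, a fold of 1.00 ± 0.331 (SD, n = 3). The ChIP values lay on both sides of the inputs. The fold was 1.17 ± 0.302 at Reln, 0.624 ± 0.119 at Vldlr and 0.664 ± 0.115 at Dab1, where the SD covers the ChIP libraries only. At Vldlr the inputs differed, at 0.900 and 0.383, and the ChIP values of 0.349, 0.488 and 0.364 lay around Input replicate 2. At Dab1 both inputs, at 0.265 and 0.35, were under their genome mean of 0.368, which served as the divisor. In the limma fit described next, the windows holding these starts had adjusted p-values of 0.971 for Lrp8, 0.974 for Reln, 0.957 for Vldlr and 0.986 for Dab1. Reln has 10 annotated transcript starts. Within 1 kb upstream of that of the transcript annotated for nonsense-mediated decay, the second-highest fold reached 5.295 on the flank of Reln site 1.

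ChIP and input were then compared across the whole regions, which were named by gene, though with earlier results of these data known. limma was fitted on log2(signal + 0.5) over 2430614 windows of 1 kb across the genome, two-sided and with Benjamini-Hochberg adjustment. Of all windows, 0.0957% were higher and 0.00267% lower in ChIP at an adjusted p under 0.05. In the 4 regions 5 windows were higher, 1 of 175 at Lrp8 and 4 of 533 at Reln, and each held 1 of the 5 sites. As the sites were picked on the same ChIP and input signal, the p-values of these windows are no independent support for them. At Vldlr 0 of 138 windows and at Dab1 0 of 1206 were higher. At an unadjusted p under 0.05 these were 0 and 23, and for all 4 regions 37 windows were higher and 35 lower. By that limma threshold, 46252 of the 2430614 windows of the genome were higher and 80925 lower. Of the 175 Lrp8 windows, 1 was higher and 14 were lower, with a median log2 difference of -0.102. With GC content removed from each library, 1 was higher and 5 were lower, with a median of -0.0205. At an adjusted p under 0.05, limma found 0 lower windows in the 4 regions.

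The window around Reln site 1 had the largest difference of the 5. Its mean signal was 2.97, 3.39 and 2.84 in ChIP replicates 1 to 3 and 0.664 and 0.563 in the inputs, a log2 difference of 1.68 ± 0.21 (SE, adjusted p = 4.85e-06 by limma). The window around the Lrp8 site had 1.97, 2.49 and 2.10 against 0.659 and 0.558, a log2 difference of 1.27 ± 0.20 (SE, adjusted p = 0.000257). In neither window did a ChIP value come near an input. The windows around Reln sites 2, 3 and 4 had smaller log2 differences of 0.86, 0.92 and 0.90, with adjusted p-values of 0.0115, 0.0102 and 0.00791. The calls of these 3 windows, more than their differences, depended on single libraries. Without ChIP replicate 2 their log2 differences were 0.80, 0.67 and 0.90, without Input replicate 1 they were 0.80, 0.94 and 0.97, and without Input replicate 2 they were 0.92, 0.90 and 0.82. Without ChIP replicate 2 or without Input replicate 1, only the windows of the Lrp8 site and Reln site 1 passed, and without Input replicate 2, or with no filter on low signal, only that of Reln site 1 did. Without Input replicate 2, that of the Lrp8 site had an adjusted p of 0.0537 (range over its alternatives 5.71e-07 to 0.0762). With 1 input left, that input was assumed to vary as the ChIP libraries did.

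Over whole regions, the ratio of mean ChIP to mean input signal was 0.88 at Lrp8, the largest departure from equality. At the other genes it was between 0.95 and 1.05. These ratios were not adjusted for GC content. Across the Reln region, signal averaged 0.382, 0.379 and 0.378 in ChIP replicates 1 to 3 against 0.361 and 0.361 in Input replicates 1 and 2, so every ChIP value was above both inputs, by a ratio of 1.05 (exact permutation test, two-sided p = 0.2, which is the lowest value possible here). The Lrp8 region had 0.347, 0.395 and 0.457 against 0.442 and 0.467, and the groups overlapped (exact permutation test, two-sided p = 0.4). The Vldlr and Dab1 regions had ratios of 0.95 and 1.05, with two-sided exact permutation p-values of 0.6 and 0.4. With 3 and 2 libraries this test cannot reach 0.05.

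The sequences of the 5 sites held poor matches to the ERE. Differences from it are written as the ERE base, its position counted from 1 at the 5′ end of the 13 bases on the plus strand, and the base found. The Lrp8 site was the closest, with 2 mismatches (T3C and A11T) at chr4:107811185-107811197, centred 40 bp from the site centre. Reln site 1 had 3 mismatches (T3G, A5G and A11C), 10 bp from the centre. Reln sites 2 and 4 also had 3, and Reln site 3 had 4 (A5C, T9G, A11T and C13A). Thus 1 of 5 sites had an ERE with at most 2 mismatches, where 68.5% of all 4841 sites and 6.675% of all 200-bp windows of the genome had one. With at most 3 mismatches it was 4 of 5, against 94.57% of all sites and 41.96% of windows. Over the genome, the median fold of sites fell from 7.265 at those with a perfect ERE to 5.60 at those whose best match had 3 mismatches, with 6.12 at those with 2. The Lrp8 site, at 13.3, and Reln site 1, at 12.7, stood above the median of sites with as many mismatches.

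The best EREs in these regions, on the other hand, lay at no site. The 4 regions held 62 EREs with 1 mismatch and 0 perfect ones. In the 200 bp centred on each, 0 of 62 were over 4-fold in at least 2 ChIP libraries, which allows a share of up to 4.839%. Over the genome, 2.26% of 72460 EREs with at most 1 mismatch were. These include 2357 perfect EREs, of which 12.43% were over 4-fold, so the share among EREs with 1 mismatch is lower. A count of 0 among so few cannot be told apart from such shares. The highest mean fold among the 62 was 1.87, at an ERE in Reln, and the median was 0.9055. Lrp8 had 3 such EREs, and the 1 nearest to its site lay 17.48 kb from the gene start, with signals of 0.317, 0.430 and 1.033 in ChIP replicates 1 to 3 against 0.23 and 0.59 in Input replicates 1 and 2, so that the groups overlapped. Dab1 had 37, the most of the 4 genes, with a highest mean fold of 1.80. Vldlr had 7 and Reln 15. Of the 62, 13 lay in repeat-masked sequence, and at 8 all 5 libraries were under 0.5 times the genome mean of the inputs.

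**Figure D4:**
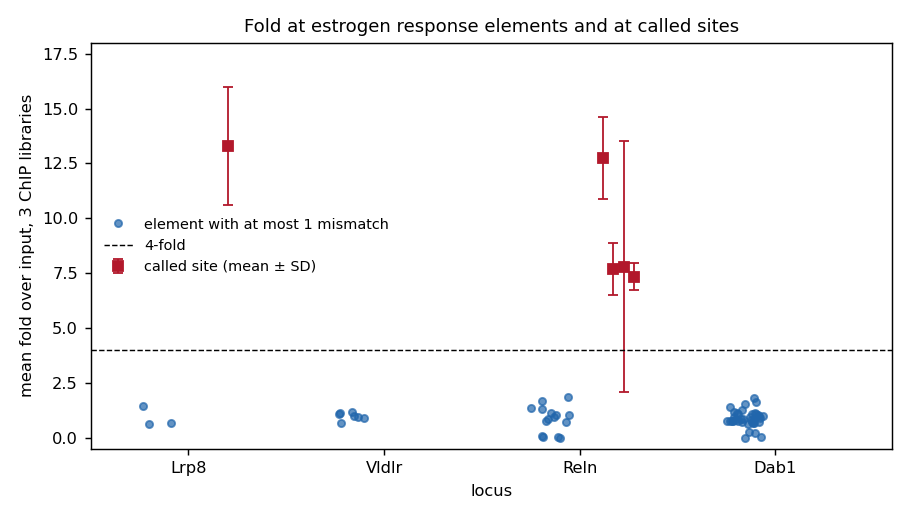
Mean fold over input of the 3 ChIP libraries (vertical axis) at each ERE with 1 mismatch (blue circles) and at each called site (red squares, ± SD, n = 3) in the 4 regions (horizontal axis). The 62 EREs all lie under 2-fold, and the 5 sites lie above 7-fold.

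Other motifs searched, on both strands, were CAAGGTCA, bound by the NR5A receptors SF-1 and LRH-1, AGATAA or TGATAA for GATA factors, TGACTCA or TGAGTCA for AP-1, and TGTTTAC for FOXO factors. A GATA motif was present in 2 of the 5 sites, the Lrp8 site and Reln site 1, which were also those of the highest fold. It was present in 29.6% of all sites and 24.1% of all 200-bp windows. Exact copies of the NR5A, AP-1 and FOXO motifs were in 0 of the 5, and in 11.7%, 6.88% and 4.83% of all sites, respectively. Unlike the ERE, these motifs were allowed 0 mismatches, so the counts are not alike. The study, by a motif search of its own, lists its Lrp8 site in intron 2 with an NR5A motif and without an ERE. AGGTCA, the single arm that most nuclear receptors recognise and a part of the NR5A motif, was in 0 of the 5 sites, in 58.9% of all sites and in 11.0% of windows. Its 5-base core GGTCA, which the ERE search also used, was in 85.2% of all sites and 26.5% of windows. At these genes it was present at Reln site 3 (3 times) and Reln site 4 (2 times) and absent from the Lrp8 site and from Reln sites 1 and 2. No match says only that these letters are not in the window printed or described.

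The wider pathway was covered by 58 genes in 4 lists, made with earlier results of these data known. Within 50 kb of the gene body, 31 of the 58 had a site, or 53.45%, where 27.5% of all protein-coding genes and 45.2% of those of at least 300 kb did. By role, these were 5 of 10 ligands and processing enzymes, 10 of 15 members and partners of the LDL receptor family, 9 of 16 adaptors and kinases and 7 of 17 genes of the cytoskeleton and of protein turnover. With sites in the gene body alone it was 14 of 58, or 24.14%, against 8.82% of all genes and 38.52% of those of at least 300 kb. Assigning each site to the nearest start of a protein-coding transcript gave 23 of 58, against 14.9%. With a minimum of 8-fold it was 12, or 20.69%, against 11.5% of all genes and 19.96% of the long ones. In 3 of 3 ChIP libraries it was 19, or 32.76%, against 20.1% and 35.51%. The share was above that of all genes in each count, and below that of long genes for gene bodies and for 3 of 3 libraries. The lists were not matched to the other genes in length or neighbours.

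Of these lists, 3 had a gene with a site over 16-fold on average. Adamts2, a procollagen protease that also cleaves reelin, had 6 sites, and the strongest (chr11:50672831-50673030, intron 3 of 21) had signals of 25.7, 30.65 and 27.7 in ChIP replicates 1 to 3 against 0.754 and 1.17 in Input replicates 1 and 2, a fold of 29.1 ± 2.59 (SD, n = 3). Map1b, a microtubule-associated protein of growing axons, had 1 site (chr13:99466921-99467120, intron 2 of 6) with signals of 16.9, 17.2 and 14.5 against 1.02 and 0.57, a fold of 20.4 ± 1.845. Lrp5, a Wnt co-receptor of the LDL receptor family, had 3, the strongest (chr19:3654181-3654380, intron 2 of 22) with signals of 15.4, 19.4 and 16.5 against 1.23 and 0.823, a fold of 16.7 ± 2.03. At all 3 sites every ChIP value was over 10 times each input. Among the adaptors and kinases the highest folds were those of Gsk3b (14.6 ± 1.37), a kinase that acts on the microtubule protein tau, Pik3r1 (13.9 ± 2.635), a regulatory subunit of phosphoinositide 3-kinase, and Mapk8ip1 (11.96 ± 3.26), a scaffold that binds Lrp8. The Gsk3b, Pik3r1 and Mapk8ip1 sites all lay outside those genes, and the nearest starts were those of Nr1i2, Pik3r1 and Large2, respectively.

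Chosen after their values were seen, Adamts3, the main protease that inactivates reelin, and Dab2, an adaptor related to Dab1, each had 1 site near the threshold. The Adamts3 site (intron 5 of 21) had folds of 5.09, 4.51 and 3.56 in ChIP replicates 1 to 3, and the Dab2 site (intron 1 of 14) had folds of 4.52, 4.44 and 3.77. In both, replicate 3 was under 4-fold.

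**Figure D5:**
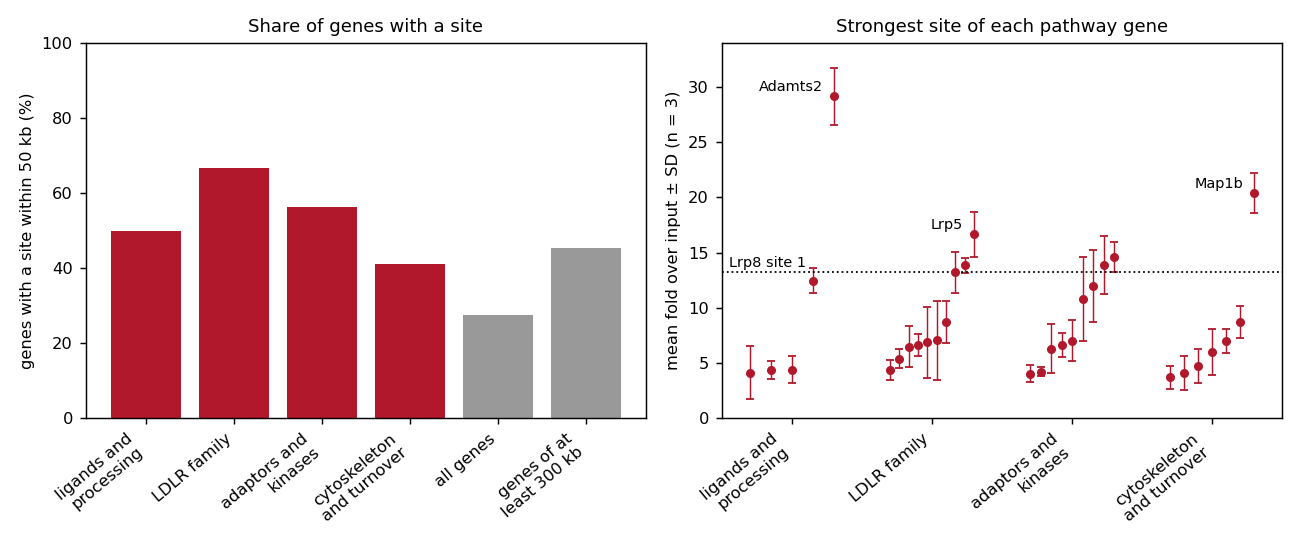
Left, share of genes with a site in the gene body plus 50 kb (vertical axis, %) in the 4 pathway lists (red) and among all protein-coding genes and those of at least 300 kb (grey). Right, mean fold over input ± SD (n = 3) of the strongest site of each pathway gene that had one, by list, with the Lrp8 site as a dotted line. Adamts2, Map1b and Lrp5 lie above 16-fold.

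The sites of the genome most like the Lrp8 site over the 5 libraries were sought by the Euclidean distance of log2(signal + 0.5). The 3 nearest were a site 24.44 kb upstream of Fzd10 (distance 0.201), a site 121.6 kb downstream of the start of Chst11 (distance 0.206) and a site 3.61 kb downstream of the start of Gm21886 (distance 0.232). Their mean folds were 12.9, 13.6 and 11.2, beside the 13.3 of the Lrp8 site.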

How the data were processed

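Per the methods of the study and the labels, the authors aligned reads to mm10 with STAR and made tracks with HOMER. Each of the 5 deposited tracks gives the signal (coverage) of 1 library, scaled by the authors to the same total and averaged over segments of variable length. Depth is unknown from the tracks, so no counting interval was computed, and how duplicate reads were treated is not given in the sources used here. Groups and replicate numbers came from sample titles.

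Signal was averaged in 200-bp windows at 10-bp steps over the autosomes and X. The input mean was floored at its genome mean (0.368). For the test, 1-kb windows were kept if their signal averaged 0.1 or more over the 5 libraries, and compared with limma 3.58.1 (R 4.3.3), with no block. Site calls, motif search and the limma fit were tested on simulated data. GENCODE vM21 and the GRCm38 sequence matched the tracks, with 0 segments past a chromosome end. Replicates were pools of animals. Named were the 4 genes with all their sites, pathway genes with a site over 16-fold on average or else the 3 highest of a list, and the 3 sites nearest in signal to that of Lrp8. The members, lists and tests were chosen with earlier results of these data known. Alternatives are given in the closing section.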

Additional observations from a re-analysis of the deposited data

How the results depend on the processing

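The count of 5 sites was 2 with a minimum of 8-fold (Lrp8 site 1 and Reln site 1), 9 with 3-fold and 3 with the input floored at 2 times its genome mean. It stayed within 1.5 times under 13 other settings, which left out a library, changed the window, the input or the flank, required 3 of 3 libraries or added a local background. Lrp8 had 1 site and Vldlr 0 under all 16 alternatives. In these counts, leaving out an input and using the other input alone are the same calls, listed under both names. The mean fold of Lrp8 site 1 was 8.49 in 400-bp windows and 9.65 with the higher floor, under which that of Reln site 1 stayed at 12.73. That of Reln site 1 was 14.7 in 100-bp and 8.42 in 400-bp windows, and that of Reln site 2 was 5.15 in 400-bp windows and 3.84 with the higher floor. Reln site 3, whose SD is large, was 5.36 and 3.90 under those settings. Reln site 4 moved to 5.17 and 12.6 with Input replicate 1 or 2 alone, which is also the range when an input is left out, and to 6.27 in 400-bp windows. The limma count of 5 higher windows was 1 with no filter on low signal, and 1 to 5 when a library was left out. With the track-name prefix as a term, chosen after seeing the data, it was 5. A replicate block gave 7 higher and 0 lower windows, but the sample titles do not say whether same-numbered libraries belong together. Deviations of same-numbered ChIP and input libraries from their group means correlated at r = 0.036 and -0.011. With 2 inputs, these deviations mirror each other, so the 2 values are not independent and cannot decide the pairing. The 31 pathway genes with a site were 14 with the gene body only, 12 with 8-fold and 19 in 3 of 3 libraries. The 1 site with an ERE of at most 2 mismatches became 0 with at most 1 mismatch, 0 with none and 4 with at most 3. Where a setting changed a value, the cause was not tested beyond what the setting itself alters. With 3 ChIP libraries, 2 inputs of unequal resolution, unknown depth and no knockout track analysed here, signal that the antibody gives without ERβ was not tested.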
